A study of Mus musculus with 16 samples.

Results

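The genes described here encode the mitochondrial ribosomal proteins, measured in mouse left ventricle. The rule takes every protein-coding gene whose mouse symbol is Mrpl or Mrps followed directly by a digit. The count table held 78 such genes among 53764, with 49 Mrpl and 29 Mrps symbols, spread over 17 chromosomes. Male C57BL/6J mice, 8 weeks old at the start, ate 1 of 4 diets for 4 months. The HFHS diet was rich in fat and sucrose, and CD, the control, contained little fat. Ertugliflozin blocks SGLT2, which reabsorbs glucose in the kidney, and was mixed into either diet at 0.5 mg per g. The groups were thus HFHS ertugliflozin, HFHS untreated, CD ertugliflozin and CD untreated, with 4 libraries each, taken as representative from 12 animals per group. Whole ventricular tissue was powdered and its polyadenylated RNA sequenced, so each value is a mean over all cell types of the ventricle.

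Mitochondria keep their own ribosomes, which translate the few proteins encoded in mitochondrial DNA, all of them subunits of the respiratory chain and of ATP synthase. The RNA of these ribosomes is transcribed inside the organelle, but each of their proteins is encoded in the nucleus, made in the cytosol and imported. Some of the proteins have a counterpart in bacterial ribosomes, and others are found only in mitochondria. The heart depends on respiration, and inherited defects of several of these genes cause cardiomyopathy in humans.

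By role, 51 of the 78 genes encode proteins of the large subunit, which holds the peptidyl transferase centre, and 26 encode proteins of the small subunit, which reads the messenger RNA. Mrps30 and Mrps18a carry names of the small subunit, but their proteins belong to the large one. Mrps36 is named as a ribosomal protein, but its product is a subunit of the 2-oxoglutarate dehydrogenase complex. A counterpart in bacteria is known for 29 large-subunit and 16 small-subunit proteins, whereas 21 and 9 are specific to mitochondria. The others are Mrps36 and the copies Mrps18a and Mrps18b, which descend from 1 bacterial protein together with Mrps18c.

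Each library held 14637669 to 21452212 counts, with 16554399 to 21452212 for HFHS ertugliflozin, 14637669 to 18745934 for HFHS untreated, 18278761 to 20293743 for CD ertugliflozin and 15897779 to 18701291 for CD untreated. All 6 cardiomyocyte markers were present, and their summed level was 60800 to 78900 CPM (read counts relative to the library total, scaled by its TMM factor) in every library. None of the marker genes of 11 cell types and tissues was at 0 in all 16 libraries. Some libraries of 1 group stood apart. Atrial markers (4 genes) summed to 942 CPM in CD untreated replicate 1 and to 58.9 to 264 CPM elsewhere. Valve and cartilage markers (6 genes) summed to 183 and 146 CPM in CD untreated replicates 2 and 3 and to 3.08 to 57.3 CPM elsewhere. Of 15841 genes with enough counts to test, 77 were mitochondrial ribosomal protein genes. Mrpl53 was left out by that filter. It had 16 counts in all 16 libraries together, and 88% of its exon sequence is shared with Gm42688, an annotated gene on the same strand.

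The start regions of 4 members are shown because factors known for nuclear genes of mitochondria can bind in such regions. Letters were searched, and binding was not measured. Each runs from 250 bases before to 50 after the transcription start given by RefSeq (GRCm38.p6), on the strand of the gene. Mrps30 had the largest diet effect among the members, Mrps15 the next smallest p and 1 of the 2 ERR motifs found among the members, Mrps27 holds an ETS and a YY1 motif, and Mrpl33 an NRF1 and an ETS motif. Capitals mark the motifs that were found.
Mrps30, chr13:118387203-118387502, minus strand, no motif found: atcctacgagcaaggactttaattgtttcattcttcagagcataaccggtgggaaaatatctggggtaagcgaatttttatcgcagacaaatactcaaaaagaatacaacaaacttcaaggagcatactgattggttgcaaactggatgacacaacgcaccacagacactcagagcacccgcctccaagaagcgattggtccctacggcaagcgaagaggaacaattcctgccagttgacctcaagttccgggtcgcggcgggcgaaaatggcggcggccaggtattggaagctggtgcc
Mrps15, chr4:126046678-126046977, plus strand: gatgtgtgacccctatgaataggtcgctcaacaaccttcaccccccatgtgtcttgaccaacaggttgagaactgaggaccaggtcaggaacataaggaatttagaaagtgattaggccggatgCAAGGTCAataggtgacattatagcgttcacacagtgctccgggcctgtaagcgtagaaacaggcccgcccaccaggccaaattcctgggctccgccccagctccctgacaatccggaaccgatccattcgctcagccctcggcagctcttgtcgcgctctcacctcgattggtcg
Mrps27, chr13:99344536-99344835, plus strand: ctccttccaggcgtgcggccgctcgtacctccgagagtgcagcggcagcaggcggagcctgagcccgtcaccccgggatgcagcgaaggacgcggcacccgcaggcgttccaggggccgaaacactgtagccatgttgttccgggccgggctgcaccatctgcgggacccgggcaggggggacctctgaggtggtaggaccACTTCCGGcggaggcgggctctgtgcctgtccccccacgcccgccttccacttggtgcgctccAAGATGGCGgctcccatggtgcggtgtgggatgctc
Mrpl33, chr5:31613701-31614000, plus strand: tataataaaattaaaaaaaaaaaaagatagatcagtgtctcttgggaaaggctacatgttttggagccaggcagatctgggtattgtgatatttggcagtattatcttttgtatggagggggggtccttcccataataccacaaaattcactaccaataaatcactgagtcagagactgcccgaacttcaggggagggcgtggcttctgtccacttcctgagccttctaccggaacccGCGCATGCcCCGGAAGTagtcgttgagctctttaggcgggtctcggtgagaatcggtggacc

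The motifs were searched on both strands as exact letters. They were GCGCATGC for NRF1, CCGGAAGT for the ETS family to which GABP belongs, AAGATGGCG for YY1, TGACCTTG for the estrogen-related receptors (ERR) and CACGTG for the E box. NRF1, GABP, YY1 and ERR are factors known for nuclear genes of mitochondria. In Mrps15 the ERR letters begin 126 bases before the start and lie on the opposite strand. In Mrps27 the ETS letters begin 49 bases before the start on the opposite strand, and the YY1 letters at base 15 after it. In Mrpl33 the NRF1 letters begin 12 bases before the start and the ETS letters 3 bases before it, with no shared base. Promoters were available for 69 of the 78 members, in 75 entries. Among these members 11.6% held NRF1, 17.4% ETS, 11.6% YY1, 2.9% ERR and 7.25% E box letters. Over all 27025 genes of the promoter table the shares were 3.05%, 4.31%, 1.64%, 1.76% and 8.09%. Over the 8878 protein-coding genes with a mean of at least 50 counts per library they were 6.12%, 9.3%, 3.74%, 1.26% and 12.1%. Member promoters had a median GC content of 58.7%, against 52.7% for all promoters.

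The level of a member was compared with that of another per mRNA length, as RPKM (CPM per kilobase, with the median length of the gene's protein-coding transcripts). The median over the 77 genes was 35.6 RPKM, and the highest mean was 63.4 times the lowest. Mrpl42, a large-subunit protein specific to mitochondria, was highest at 298 ± 26.5 RPKM (mean ± SD over 16 libraries). Mrpl30 followed at 216 ± 18.9 RPKM and Mrps21, of the small subunit, at 168 ± 12.6 RPKM. Mrps26 at 7.03 ± 0.377 RPKM, Mrps25 at 6.32 ± 0.518 RPKM and Mrpl23 at 4.70 ± 0.807 RPKM were lowest. Messages for proteins of the same ribosome thus differed many-fold in level, within both subunits. The order of the highest genes depends on the transcript length used: with the length of all exons joined, Mrps21 ranked 1, Mrpl42 ranked 10 and Mrpl30 ranked 13, while Mrpl23 stayed last.

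**Figure D1:**
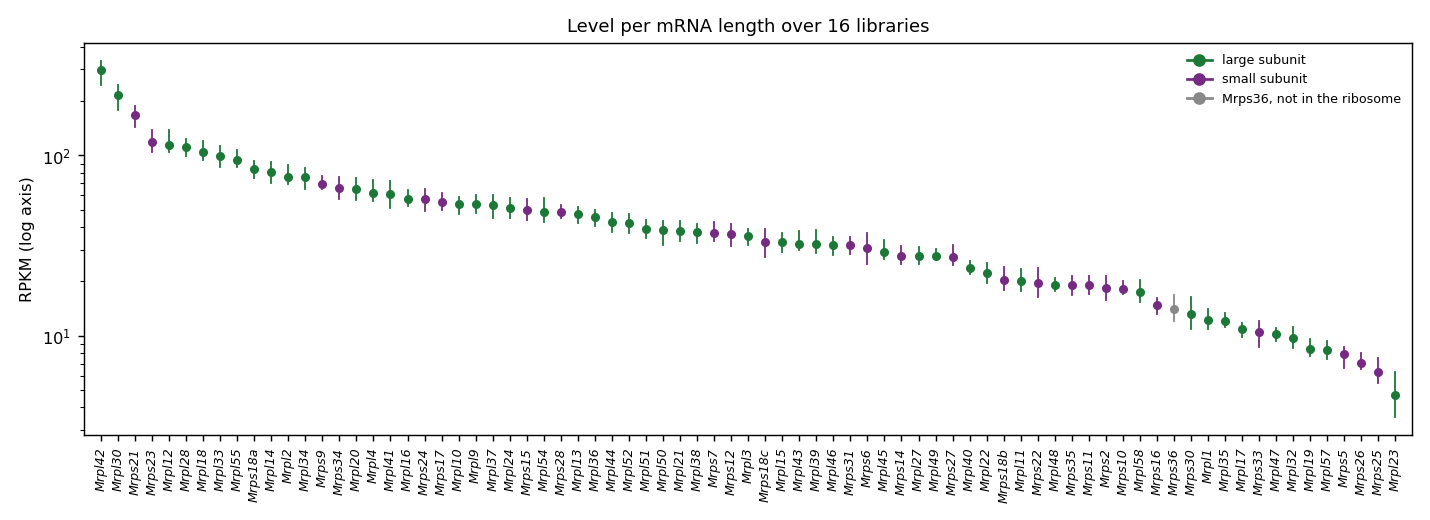
Mean level of 77 mitochondrial ribosomal protein genes per mRNA length (points, RPKM, log axis) with the range over 16 libraries (lines), in order of level. Mrpl42 stands at 298 RPKM and Mrpl23 at 4.70 RPKM, and large- and small-subunit genes are interspersed.

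Mrpl23 is a special case. Its processed pseudogene Mrpl23-ps1 held 9715 counts over the 16 libraries, against 924 for Mrpl23, so 91.3% of their sum lay on the pseudogene. For Mrps36 the pseudogene Mrps36-ps1 held 7052 counts, against 2545, and for Mrpl48 the pseudogene Mrpl48-ps held 4228, against 10203. How the counting divided reads between such copies is not given in the sources used here, and the levels of Mrpl23, Mrps36 and Mrpl48 are therefore uncertain.

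The members varied little between animals of a group. Their within-group SD of log2 CPM had a median of 0.0823, from 0.0499 to 0.256. Other genes of the same range of levels had a median of 0.0955 (6260 genes). The largest spread was that of Mrpl23, the member with the fewest counts of those tested, and the next that of Mrps2 at 0.142.

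The diet comparison asks how the hearts of HFHS-fed mice differ from those of CD-fed mice. Mitochondrial ribosomal protein genes were lower in HFHS hearts almost without exception, by small amounts. Over both drug arms 21 of the 77 genes fell and 0 rose (edgeR quasi-likelihood test, Benjamini-Hochberg adjusted p under 0.05 over all 15841 genes). Of all genes tested 5.01% fell and 6.59% rose, 11.6% in either direction. The estimate was below 0 for 74 of the 77 members, against 52.3% of all genes. Respiratory chain and cytosolic ribosomal genes, given further on, also lay mostly below 0 in each drug arm. The members' median log2 fold change was −0.11, a difference of −7.37%, while that of all genes was −0.0076. In bulk tissue, fewer cells of a type and less RNA per cell cannot be told apart.

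The difference shows in the sum of the members as well. They took 0.402%, 0.409%, 0.416% and 0.423% of all counts in the HFHS ertugliflozin libraries and 0.432%, 0.409%, 0.405% and 0.393% in the HFHS untreated libraries. In the CD ertugliflozin libraries the shares were 0.454%, 0.442%, 0.449% and 0.470%, and in the CD untreated libraries 0.440%, 0.435%, 0.436% and 0.446%. By this share of raw counts all HFHS libraries lay below all CD libraries. As summed CPM, which includes the TMM factor, the diets overlapped. HFHS ertugliflozin replicate 4 was at 4310 CPM, and CD untreated replicates 2 and 3 were at 4270 and 4240 CPM. The mean of the members' log2 CPM, each centred over the 16 libraries, was −0.0432 ± 0.0396 for HFHS ertugliflozin, −0.0638 ± 0.0306 for HFHS untreated, 0.0797 ± 0.0537 for CD ertugliflozin and 0.0273 ± 0.0357 for CD untreated (SD, n = 4 each). By this measure the highest HFHS library, at 0.00483, overlapped with the lowest CD library, at −0.0136. For 74 of the 77 genes the lowest of all 16 libraries was from an HFHS heart, and for 73 the highest was from a CD heart. CD ertugliflozin replicate 4 was the highest library for 43 genes. HFHS untreated replicates 1 and 4 were the lowest for 19 and 18 genes.

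**Figure D2:**
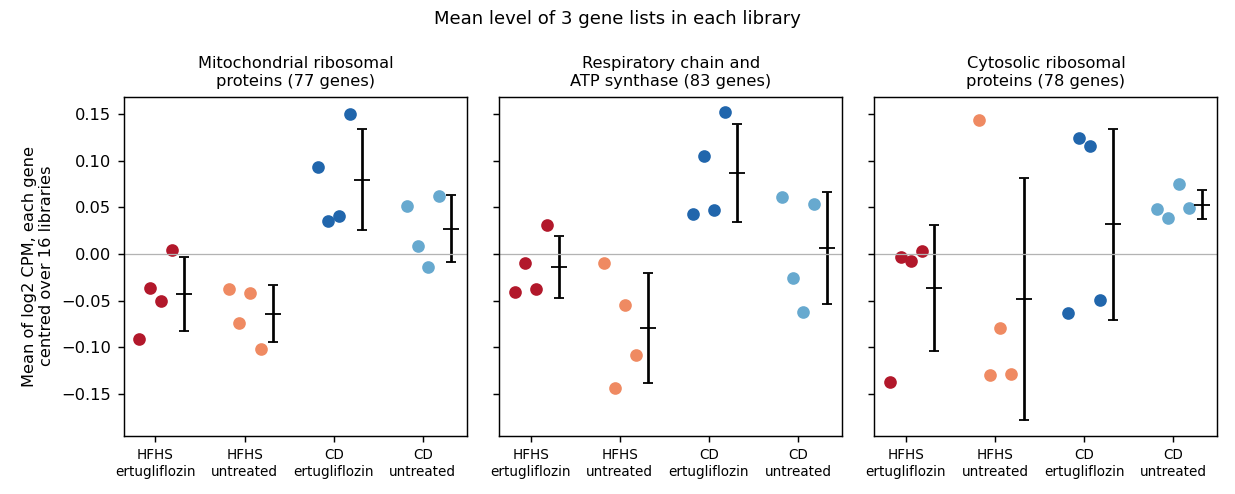
Mean of log2 CPM over the genes of a list, each gene centred over 16 libraries, for every library (points) with the group mean and SD (bars, n = 4), for 77 mitochondrial ribosomal protein, 83 respiratory chain and ATP synthase and 78 cytosolic ribosomal protein genes. The mitochondrial ribosomal means are −0.0432 and −0.0638 in the HFHS groups and 0.0797 and 0.0273 in the CD groups.

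Of the large subunit 13 of 50 genes fell, with a median of −0.11 over all 50, and Mrps30 led them. Mrps30 had 39.9, 38.8, 36.7 and 41.8 CPM in HFHS ertugliflozin hearts and 36.2, 40.2, 40.4 and 41.4 CPM in HFHS untreated hearts, against 54.1, 47.6, 48.1 and 51.4 CPM in CD ertugliflozin hearts and 44.6, 44.6, 46.6 and 50.5 CPM in CD untreated hearts. Every HFHS library was below every CD library. The log2 fold change was −0.30 ± 0.04 (SE, edgeR adjusted p = 2.55e-04), or −18.6%. In GRCm38 Mrps30 (ENSMUSG00000021731) lies on chromosome 13 from 118378381 to 118387252, on the minus strand, and 9.35% of its exon sequence lies opposite B430218F22Rik.

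Mrpl15 (ENSMUSG00000033845, chromosome 1, 4773206 to 4785739), which has a bacterial counterpart, had 58.5, 57.0, 55.0 and 63.3 CPM in HFHS ertugliflozin hearts and 59.7, 59.8, 58.4 and 57.2 CPM in HFHS untreated hearts. It had 67.7, 70.7, 62.5 and 69.0 CPM in CD ertugliflozin hearts and 68.0, 66.4, 67.2 and 67.5 CPM in CD untreated hearts. The groups overlapped through a single pair of ertugliflozin libraries, at 63.3 CPM on HFHS and 62.5 CPM on CD. The log2 fold change was −0.20 ± 0.04 (SE, edgeR adjusted p = 0.00122). Mrpl58 (ENSMUSG00000018858, chromosome 11, 115403752 to 115412674), a peptidyl-tRNA hydrolase that frees stalled ribosomes, had 38.7 to 44.1 CPM with a median of 41.7 in the HFHS libraries, against 44.4 to 51.6 CPM with a median of 46.4 in the CD libraries. Its diets did not overlap, and the log2 fold change was −0.19 ± 0.04 (SE, edgeR adjusted p = 0.00369). Mrpl11, at the base of the stalk that binds translation factors, averaged 36.1 ± 1.6 and 36.5 ± 2.2 CPM in HFHS ertugliflozin and HFHS untreated hearts, against 41.2 ± 1.8 and 41.97 ± 2.5 CPM in CD ertugliflozin and CD untreated hearts (SD, n = 4 each). It fell by 0.20 on the log2 scale (SE 0.04, edgeR adjusted p = 0.00478).

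Mrpl21 fell by 0.18 on the log2 scale (SE 0.04, edgeR adjusted p = 0.00693). The protein of Mrpl3 lies near the peptidyl transferase centre, and variants of the human gene cause cardiomyopathy. Mrpl3 had 104, 108, 109 and 109 CPM in HFHS ertugliflozin hearts and 99.95, 115, 108 and 102 CPM in HFHS untreated hearts, against 118, 110.5, 120 and 122 CPM in CD ertugliflozin hearts and 111, 118, 114 and 122 CPM in CD untreated hearts. The diets overlapped, and the log2 fold change was −0.13 ± 0.04 (SE, edgeR adjusted p = 0.0205). That call was lost without HFHS ertugliflozin replicate 1 (adjusted p = 0.0521) and without CD untreated replicates 2 and 3 together (adjusted p = 0.05705). The other large-subunit genes that fell were Mrpl55 (−0.14), whose diets did not overlap, Mrpl24 (−0.17), Mrpl33 (−0.15), Mrpl46 (−0.13), Mrpl51 (−0.13), Mrpl9 (−0.13) and Mrpl42 (−0.15), with adjusted p of 0.0163 to 0.0405. Mrpl44, also a gene of human cardiomyopathy, missed the threshold at −0.12 ± 0.04 (edgeR adjusted p = 0.0518). Mrpl12, the stalk protein that recruits translation factors, was at −0.12 ± 0.04 (adjusted p = 0.0747). Mrpl45, which lies at the tunnel exit facing the inner membrane, was at −0.09 ± 0.04 (adjusted p = 0.152). Mrpl30 and Mrpl34 were at −0.13 and −0.08 and did not pass. Mrpl23 was at −0.17 ± 0.13, with the widest error of all members (adjusted p = 0.440). Mrpl23-ps1, the pseudogene with most of the pair's counts, fell by 0.19 on the log2 scale (SE 0.04, edgeR adjusted p = 0.00451).

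Of the small subunit 8 of 26 genes fell, with a median of −0.12 over all 26. Mrps15, a protein that contacts the small-subunit ribosomal RNA, had 44.1, 42.3, 43.5 and 45.4 CPM in HFHS ertugliflozin hearts and 42.6, 42.1, 43.0 and 41.4 CPM in HFHS untreated hearts, against 50.2, 48.2, 51.7 and 53.7 CPM in CD ertugliflozin hearts and 51.1, 47.0, 47.5 and 50.2 CPM in CD untreated hearts. The diets did not overlap, and the SD was 1.3, 0.71, 2.3 and 2.0 CPM in these groups. The log2 fold change was −0.21 ± 0.03 (SE, edgeR adjusted p = 5.24e-04). Mrps15 (ENSMUSG00000028861) lies on chromosome 4 from 126046925 to 126055532, on the plus strand. Mrps35, specific to mitochondria, had 69.8 to 78.6 CPM with a median of 76.3 in the HFHS libraries, against 78.6 to 89.3 CPM with a median of 83.7 in the CD libraries. The highest HFHS library, at 78.60 CPM, and the lowest CD library, at 78.63 CPM, nearly met, and the log2 fold change was −0.16 ± 0.03 (SE, edgeR adjusted p = 0.00652).

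Mrps7, whose bacterial counterpart organises the head of the small subunit, fell by 0.15 on the log2 scale (SE 0.04, edgeR adjusted p = 0.0104). Mrps27, which belongs to a family of RNA-binding proteins, also fell by 0.15 (SE 0.04, adjusted p = 0.0149). Mrps24 fell by 0.19 (SE 0.04, adjusted p = 0.0111), but 15.4% of its exon sequence is shared with Urgcp on the same strand. Mrps5 (−0.16), Mrps31 (−0.14) and Mrps21 (−0.14) fell as well, with adjusted p of 0.0254 to 0.0322. Mrps12, of the decoding centre, was at −0.06 ± 0.05 (adjusted p = 0.467). Mrps14 and Mrps22, both genes of human cardiomyopathy, were at −0.09 ± 0.04 and −0.08 ± 0.06 and did not pass (adjusted p = 0.134 and 0.453). Mrps16 at −0.11, Mrps6 at −0.16, Mrps25 at −0.14, Mrps26 at −0.05 and Mrps2 at −0.05 did not pass. Mrps36, the dehydrogenase subunit, was at −0.14 ± 0.06 (adjusted p = 0.157), and its pseudogene Mrps36-ps1 fell by 0.16 (SE 0.05, edgeR adjusted p = 0.0293).

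The 3 members above 0 were Mrps34, Mrps10 and Mrpl28. Mrps34, specific to mitochondria, had 58.5 to 69.5 CPM with a median of 61.7 in the HFHS libraries, against 53.0 to 63.1 CPM with a median of 58.8 in the CD libraries. Its log2 fold change of 0.13 ± 0.05 was short of the threshold (edgeR adjusted p = 0.103, unadjusted p = 0.0185). Of its exon sequence 37% is shared with Nme3 on the same strand, and 63.4% lies opposite Mapk8ip3. Mrps10 and Mrpl28 were both at 0.03 (adjusted p = 0.688 and 0.736). The quartiles of the 77 members were −0.14 and −0.08, so the middle of the group spanned a narrow band.

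**Figure D3:**
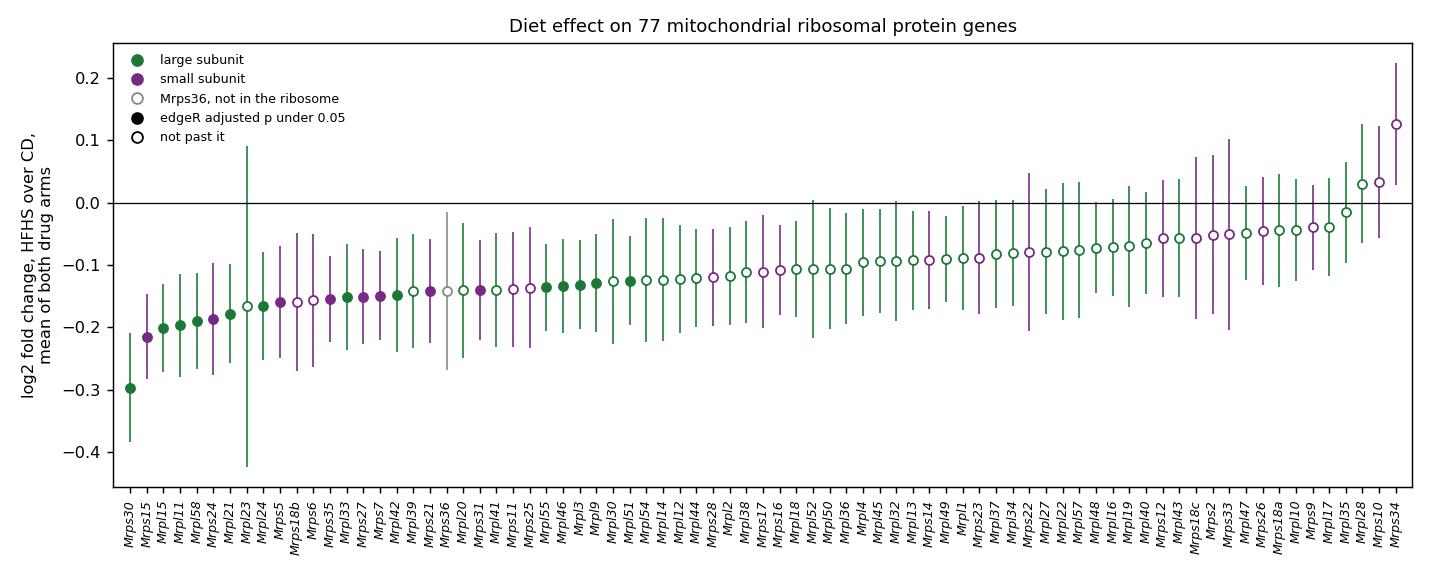
Diet effect on 77 mitochondrial ribosomal protein genes as log2 fold change of HFHS over CD, averaged over both drug arms, with bars of 2 SE either side, in order of size and coloured by subunit. The 21 filled points passed an edgeR adjusted p of 0.05, all below 0, and Mrps34, Mrps10 and Mrpl28 stand above 0.

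**Figure D4:**
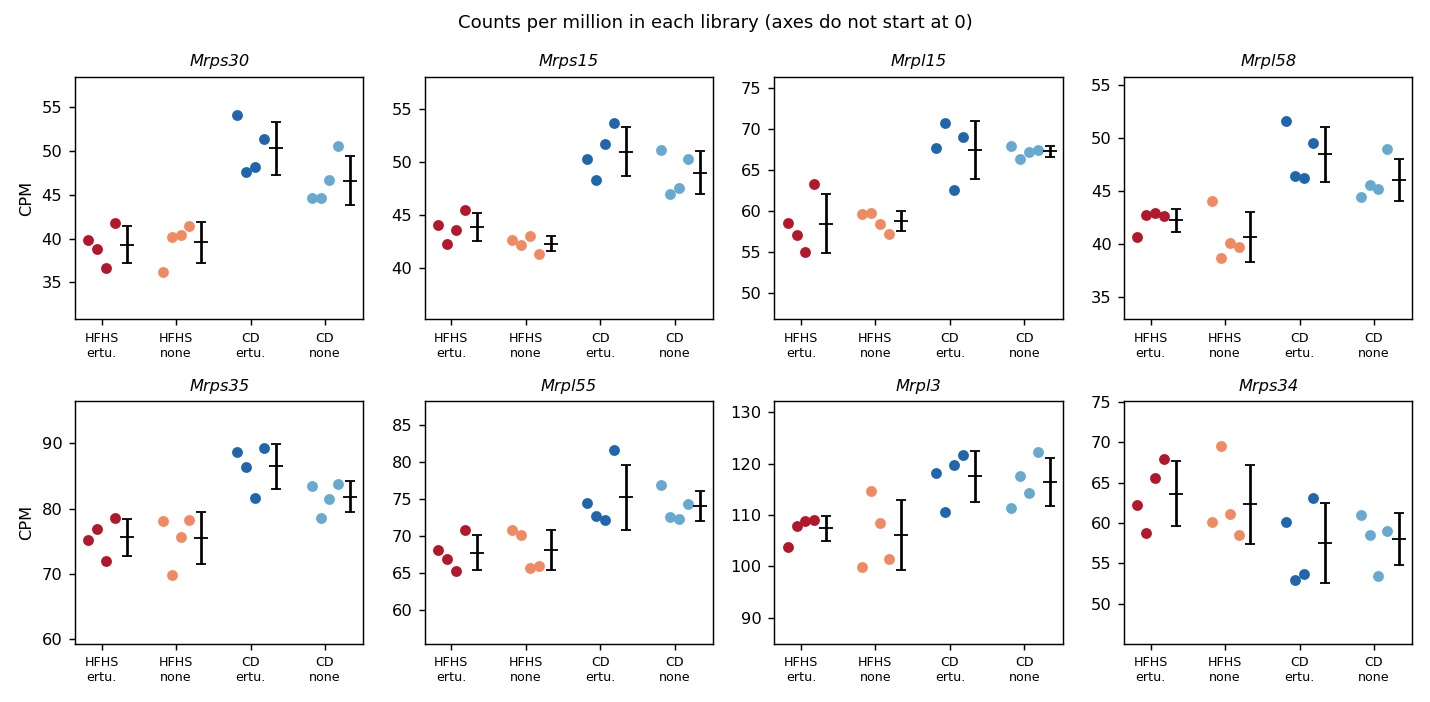
CPM in each library for 8 members, by group, with the group mean and SD (bars, n = 4). The axes do not start at 0. The HFHS libraries of Mrps30 (36.2 to 41.8 CPM) lie below its CD libraries (44.6 to 54.1 CPM), while those of Mrps34 lie at 58.5 to 69.5 CPM against 53.0 to 63.1 CPM.

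In 5 members every HFHS library was lower than every CD library (Mrps30, Mrps15, Mrpl58, Mrps35 and Mrpl55), and 0.802% of all genes tested had this order. In 0 members every HFHS library was higher, against 0.96% of all genes. Proteins of either origin were among those that fell. Among members with a bacterial counterpart 12 of 45 fell, with a median of −0.11, and among those specific to mitochondria 9 of 29 fell, also with a median of −0.11. Promoters of members that fell and of the others held at least 1 of the NRF1, ETS and YY1 motifs at similar shares, 7 of 19 (36.8%) and 19 of 49 (38.8%). The ERR letters were found in 2 of the 19 and in 0 of the 49, and the E box in 0 of the 19 and in 5 of the 49.

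Within each drug arm the members were lower too. With ertugliflozin 8 fell and 0 rose, when 1.53% of all genes tested fell and 2.15% rose (3.69% in all). These were Mrps30, Mrps15, Mrpl15, Mrps35, Mrps27, Mrpl21, Mrpl46 and Mrpl58. Mrps30 was at −0.36 ± 0.06 (edgeR adjusted p = 0.00270), and the others lay between −0.19 and −0.22 with adjusted p of 0.0153 to 0.0457. The median over the 77 was −0.13, 73 were below 0, and 26 had all HFHS libraries below all CD libraries, an order found in 6.38% of all genes, while 0 members and 6.79% of all genes had the opposite order. Without drug 3 fell and 0 rose, when 0.619% of all genes fell and 1.45% rose (2.06% in all). Mrps24 (−0.25 ± 0.06, edgeR adjusted p = 0.0466), Mrps15 (−0.21 ± 0.05, adjusted p = 0.0285) and Mrpl15 (−0.20 ± 0.05, adjusted p = 0.0482) passed, and Mrps30 was at −0.24 ± 0.06 and just missed the threshold (adjusted p = 0.0522). The median was −0.09, 72 were below 0, and 12 had all HFHS libraries lower, against 4.22% of all genes, while 0 members and 4.11% of all genes had all HFHS libraries higher. Leaving out 1 library of an arm gave 1 to 7 falls with drug, the fewest without HFHS ertugliflozin replicate 2, when 0.662% to 1.18% of all genes fell. Without drug it gave 0 to 6, with 0 when CD untreated replicate 1 or 4 or HFHS untreated replicate 2, 3 or 4 was left out and 6 without HFHS untreated replicate 1. Of all genes 0.193% to 1.92% fell in these fits without drug. The call of Mrps15 with drug was lost without HFHS ertugliflozin replicate 2, while Mrps30 kept its call with drug without any 1 library. Of the 8 such fits with drug, Mrpl15, Mrpl21 and Mrps35 kept their call in 2, Mrps27 and Mrpl46 in 1 and Mrpl58 in 0. Of the 8 without drug, Mrps15 kept its call in 3, Mrps24 in 2 and Mrpl15 in 1.

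These arms share no library. Of the 77 members 71 were below 0 in both arms, or 92.2%, against 35.3% of all genes, and Mrps34, Mrps10 and Mrpl28 were above 0 in both. Mrps15 and Mrpl15 fell in both arms with all libraries, but each of these calls was lost in some of the fits without 1 library. Across the 77 members the effects in the arms had a Pearson r of 0.533, and across all genes tested r was 0.335. Genes measured in the same libraries are not independent of each other, so these coefficients are descriptions.

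**Figure D5:**
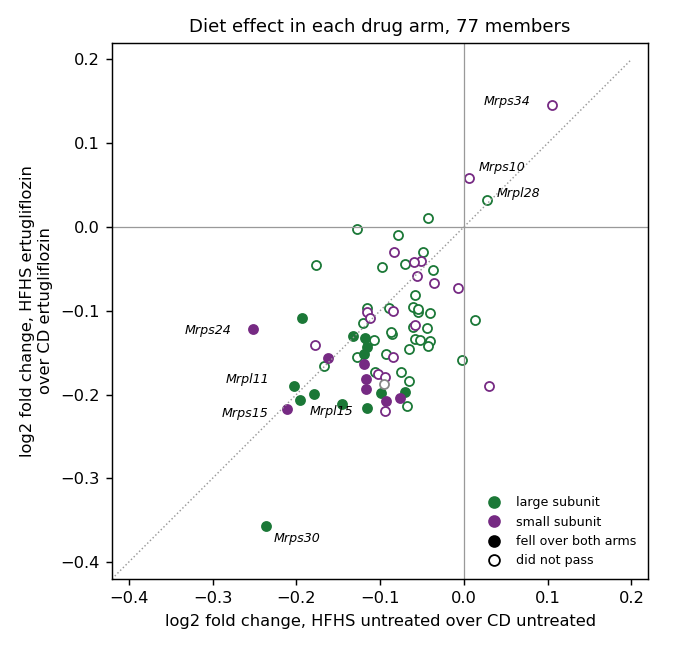
Log2 fold change of HFHS over CD in the ertugliflozin arm (vertical) against the untreated arm (horizontal) for 77 members, coloured by subunit, with the line of equal effects dotted. The points lie mostly at the lower left, 71 below 0 on both axes, and the filled points fell over both arms.

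The drug comparison asks what ertugliflozin did on each diet. No mitochondrial ribosomal protein gene passed for the drug. On CD 0 members passed by edgeR, when 0.0189% of all genes were called, and DESeq2 and limma-voom also gave 0. The estimates were above 0 for 63 of 77 with a median of 0.05, and below 0 for 18.2%, against 48.3% of all genes. At an unadjusted p under 0.05 by edgeR were 5 members, all higher. Of all 15841 genes 481 were higher and 497 lower at that p. The members' median was 0.0239, with 26 of 77 below 0, without CD ertugliflozin replicate 4. It was 0.0288, with 29 below 0, without CD untreated replicates 2 and 3. In the same comparison all 4 valve and cartilage and 3 of 4 atrial markers were lower at an unadjusted p under 0.05, and their part in the members' values was not tested. Mrps22 was at 0.23 ± 0.09, with 26.2 ± 2.1 CPM in CD ertugliflozin hearts and 22.4 ± 1.3 CPM in CD untreated hearts (SD, n = 4 each, edgeR adjusted p = 0.762). Mrpl34 at 0.15 ± 0.06 (edgeR adjusted p = 0.762) and Mrpl42 at 0.15 ± 0.06 (adjusted p = 0.779) followed. In each of these 3 every ertugliflozin library was above every untreated one, as in 5 members altogether, when 1.78% of all genes had that order and 1.29% the opposite one.

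On HFHS 0 members passed by edgeR, DESeq2 or limma-voom and 0 had an unadjusted p under 0.05, when 0% of all genes were called. The median was 0.0133, with 53 of 77 above 0. It lay on the other side of 0, at −0.0058 with 40 of 77 below 0, without HFHS ertugliflozin replicate 4, and was 0.0302 without HFHS untreated replicate 1, so it gives no stable direction. In 0 members did all ertugliflozin libraries lie on 1 side of all untreated ones, whereas 1.54% of all genes were wholly lower and 1.31% wholly higher. Mrps6 was at −0.13 ± 0.08, Mrps16 at 0.09 ± 0.05 and Mrps14 at 0.09 ± 0.06, the 3 smallest p among the members (edgeR adjusted p = 0.9999 for each). Over both diets 0 members passed by the same 3 tools, and 5 had an unadjusted p under 0.05. The members' median was 0.04 with 66 of 77 above 0, and that of all genes was −0.000201. All 5 were higher, but the share of all genes at that p is not given here, so their number is not read as a result. By groups, 0 members did not overlap, as did 0.00631% of all genes. Mrps14 at 0.10 ± 0.04, with 52.7 ± 2.9 and 56.4 ± 2.6 CPM in HFHS and CD ertugliflozin hearts against 49.4 ± 3.2 and 52.3 ± 1.2 CPM in HFHS and CD untreated hearts, was first (edgeR adjusted p = 0.863). Mrpl21 and Mrps16 were next, at 0.09 and 0.08.

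Whether the drug acted differently on the diets was tested as an interaction, the drug effect on HFHS minus that on CD. By edgeR, DESeq2 and limma-voom 0 members passed, and 0 had an unadjusted p under 0.05 in edgeR, when 0.0189% of all genes were called. The smallest p values were those of Mrpl34 (−0.16 ± 0.08), Mrps22 (−0.22 ± 0.13) and Mrpl46 (−0.13 ± 0.08), with an edgeR adjusted p of 0.9998 each. The members' median was −0.0321, with 53 of 77 below 0. It was 0.00395, with 37 below 0, without CD untreated replicates 2 and 3. With single libraries left out it ran from −0.0573 (HFHS ertugliflozin replicate 4) to −0.0125 (CD ertugliflozin replicate 4). The number of falls with drug (8) and without (3) is thus not shown to be a difference between the arms.

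Other genes that serve mitochondrial translation were compared over both drug arms. Of 5 mitochondrial ribosomal proteins with symbols of another stem, 5 were below 0 and only Chchd1 fell (−0.16 ± 0.05, edgeR adjusted p = 0.0482), when 5.01% of all genes fell. Dap3, Ptcd3, Aurkaip1 and Gadd45gip1 were at −0.06 to −0.11 and did not pass. Among 26 genes of ribosome assembly and rRNA modification 4 fell and 0 rose, with a median of −0.12. They were Mettl17 (−0.33 ± 0.07), a factor of small-subunit assembly, Mtg2 (−0.26 ± 0.05), a GTPase of the large subunit, Malsu1 (−0.23 ± 0.06), which is bound to the large subunit before the subunits join, and Mterf3 (−0.16 ± 0.04), of the family of mitochondrial termination factors. Of 16 translation factors 0 passed by edgeR and 2 had an unadjusted p under 0.05, both lower, with a median of −0.05. Of 20 aminoacyl-tRNA synthetases only 1, a share near the 5.01% of all genes that fell, passed: Rars2, the arginyl-tRNA synthetase (−0.21 ± 0.05, edgeR adjusted p = 0.00679), and the median was −0.08. Of 13 genes of mitochondrial DNA and RNA synthesis only Hsd17b10, a subunit of the RNase that trims tRNA ends, fell (−0.23 ± 0.04, adjusted p = 0.00104). The median of these 13 was −0.04, and 1 call among so few says little beside the 5.01% of all genes.

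The respiratory chain and ATP synthase, whose mitochondrially encoded subunits these ribosomes make, showed nuclear genes at similar values: 23 of 83 fell and 0 rose, with a median of −0.09. Ndufb9 (−0.20 ± 0.04), Ndufa12 (−0.20 ± 0.04), Atp5g1 (−0.20 ± 0.04) and Cox6b1 (−0.17 ± 0.04) had the smallest adjusted p. Of 78 cytosolic ribosomal protein genes 4 fell and 0 rose, a share near the 5.01% of all genes that fell, with a median of −0.08 and wider errors (median SE 0.0648, against 0.0433 for the members). Without and with drug, 94% and 92.8% of the respiratory chain list were below 0, and 88.5% and 83.3% of the cytosolic list. For the members these shares were 93.5% and 94.8%, and for all genes 50.4% and 51.4%. The direction was thus not particular to the members. Among 10 transcription factors and coactivators of nuclear genes for mitochondria, Ppargc1b rose (0.32 ± 0.09, edgeR adjusted p = 0.0219). Ppargc1a was at −0.19 ± 0.07 (adjusted p = 0.0921, past no threshold), and Nrf1, Gabpa, Yy1 and Esrra were at −0.03, 0.06, 0.04 and −0.04. The count table has 0 mitochondrially encoded genes, so the products of these ribosomes are not analysed here.

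Single markers of several cell types changed with diet over both drug arms. The cardiomyocyte markers Tnnt2 (−0.19 ± 0.05, edgeR adjusted p = 0.00932) and Pln (−0.16 ± 0.03, adjusted p = 0.00583) fell, and of the other 4, none of which passed, 2 were lower and 2 higher (the highest at 0.135). Their summed level was 65300 to 71300 CPM for HFHS ertugliflozin, 60800 to 75300 for HFHS untreated, 65300 to 77400 for CD ertugliflozin and 68000 to 78900 for CD untreated. Of 6 endothelial markers Kdr and Cdh5 rose and the other 4 were higher without passing, and the sums were 1240 to 1400, 1330 to 1520, 1150 to 1310 and 1130 to 1200 CPM in these groups. Of 6 fibroblast markers Pdgfra rose, 3 others were higher and 2 lower without passing, with sums of 1100 to 1360, 1020 to 1290, 872 to 1290 and 1010 to 1610 CPM. Of the macrophage (6), smooth muscle and pericyte (5), erythroid (5), atrial (4), valve and cartilage (4), B cell (3) and adipocyte (2) markers that could be tested, 0 passed by edgeR over both drug arms. All 4 atrial and all 4 valve and cartilage markers were lower at an unadjusted p under 0.05, as was 1 macrophage marker, while 2 smooth muscle markers and 1 B cell marker were higher. With drug, Tnnt2 and Pln fell, Pdgfra rose, and all 6 macrophage markers were lower, 4 of them at an unadjusted p under 0.05, with 0 past the threshold. Without drug, Kdr, Cdh5 and Pdgfra rose and the valve marker Cilp2 fell (−3.57 ± 0.84, edgeR adjusted p = 0.0468), and all 4 atrial and all 4 valve and cartilage markers were lower at an unadjusted p under 0.05. The part of cell composition in the diet effect was not tested. With CD untreated replicates 2 and 3 (the highest in valve and cartilage markers) left out, 20 members fell over both drug arms with a median of −0.13. In that fit 0 fell without drug with a median of −0.12. Of all genes 3.7% and 0.24% fell there, against 5.01% and 0.619% with all libraries. Without CD untreated replicate 1, which had the most atrial marker RNA, 18 members fell over both drug arms with a median of −0.10. There 0 fell without drug with a median of −0.07, and of all genes 4.15% and 0.318% fell in these comparisons.

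Members have short messages, with a median mRNA length of 1230 bases, against 2760 for all protein-coding genes tested, and a GC content of 49.7% against 49.8%. After a correction of each library for GC content and the length of all exons joined, 13 members fell over both drug arms with a median of −0.08, and 4 fell with drug. Of all genes 4.53% and 1.35% fell in these comparisons. The joined length can far exceed the mRNA length, as in Mrpl15 with 8487 against 1894 bases. A correction by mRNA length was not run. Over both drug arms 12 of the 21 falls kept their call without each single library. The number of falls was 13 without HFHS untreated replicate 2 or HFHS ertugliflozin replicate 1, when 3.47% and 3.46% of all genes fell. Mrpl9, Mrpl42 and Mrps21 were lost most often, keeping their call in 3, 6 and 7 of 16 such fits. Mrpl11, Mrpl15, Mrpl21, Mrpl58, Mrps7, Mrps15, Mrps24, Mrps30 and Mrps35 (9 of the 21) kept their call over both drug arms under all 27 other settings, leaving out each library among them.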

How the data were processed

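Per the labels' protocols, poly(A)-selected RNA from 16 left ventricles went into directional libraries. Whole, unnormalized read counts per Ensembl gene make up the count table the authors deposited. Named in the submitters' processing notes are the mm10 build, FastQC 0.11.7, STAR 2.6.0c, Subread 1.6.2 with featureCounts, and DESeq2 1.22.1. Strand setting, annotation and treatment of reads with several positions: not given in the sources used here. A second deposited table, by the authors, holds regularized log2 values and served as an alternative only. Groups come from the sample titles. No label says more of the animals, so p-values measure the spread between these chosen mice.

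Symbols, coordinates and lengths were taken from GENCODE M21 (GRCm38), which named 53669 of 53764 genes. Counts were analysed with edgeR 4.0.16 in R 4.3.3: filterByExpr, TMM scaling, 1 mean per group over all 16 libraries, robust quasi-likelihood dispersions and Benjamini-Hochberg adjustment over 15841 genes. The SE was taken as the absolute log2 fold change over the root of F. Log2 CPM used a prior count of 2. Library totals of 14637669 to 21452212 counts limit the precision mainly for Mrpl23. Replicates differed by more than sampling noise and were counted singly. Alternatives were upper-quartile and RLE scaling, leaving the filter out, a filter of 1 CPM in 4 libraries, limma 3.58.1 on the authors' log2 table, limma-voom (sample weights), DESeq2 1.42.0, a block for replicate number, a correction for length and GC content (lowess span 0.3), leaving out each library and, chosen after the data were seen, leaving out CD untreated replicates 2 and 3. The length in that correction was that of all exons joined. The fits were tested on simulated counts.

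The members and lists were chosen with earlier results of these data known. Named members are, per comparison, up to 10 past the threshold (or the 3 of smallest p), the 3 highest and 3 lowest by RPKM, the 2 of largest spread and 10 preset genes. Mrpl55, Mrps34, Mrps10, Mrpl28 and the remaining members past the threshold were named after their values were seen, as were genes of the related lists that did not pass.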

Additional observations from a re-analysis of the deposited data

Results flagged for a closer look

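In 128 groups of 4 values examined (the 29 named genes and 3 summary scores in 4 groups each), 4 had a library far from the other 3 by Dixon's criterion at the 95% level. Chance gives about 1 in 20. Mrpl58 had 40.6 CPM in HFHS ertugliflozin replicate 1 and 42.7 to 42.9 CPM in the other 3. Mrps21 had 67.5 CPM in HFHS ertugliflozin replicate 3, against 73.1 to 74.1 CPM, and 84.5 CPM in CD untreated replicate 4, against 73.2 to 74.9 CPM. Mrps24 had 64.2 CPM in CD ertugliflozin replicate 4, against 57.2 to 58.0 CPM.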

How the results depend on the processing

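No named member changed direction, in the comparisons it was tested again for, under any of the 27 other settings. The number of members called over both drug arms, 21 as reported, was 35 with upper-quartile scaling (when 6.45% of all genes fell, against 5.01% as reported), 13 with the correction for length and GC content (4.53%) and 12 with that correction and the replicate block (4.31%). Leaving out each library gave 13 to 31, when 3.46% to 7.22% of all genes fell, with 31 (7.22%) without HFHS untreated replicate 1 and 13 without HFHS untreated replicate 2 or HFHS ertugliflozin replicate 1. The median was −0.0685 on the deposited log2 values. With drug, the 8 calls (1.53% of all genes fell) became 1 without a filter (0.629%), 4 with the length and GC correction (1.35%) and 4 with it and the block (1.29%). They became 5 without CD untreated replicates 2 and 3 (1.23%) and 1 to 7 without 1 library. They were 3, 2, 5 and 2 without CD ertugliflozin replicates 1, 2, 3 and 4, and 2, 1 and 2 without HFHS ertugliflozin replicates 1, 2 and 3, when 0.662% to 1.18% of all genes fell. The median was −0.0836 on the deposited log2 values. Without drug, the 3 calls (0.619% of all genes fell) became 1 without a filter (0.311%), 5 with DESeq2 (1.37%) and 5 with limma-voom (1.63%). They became 1 with the block and the correction (0.657%), 0 without CD untreated replicates 2 and 3 (0.24%) and 0 to 6 without 1 library. They were 0 without CD untreated replicate 1 or 4 or HFHS untreated replicate 2, 3 or 4, 1 without CD untreated replicate 2 and 6 without HFHS untreated replicate 1, when 0.193% to 1.92% of all genes fell. The median was −0.0513 on the deposited log2 values, against −0.0871 as reported. Some of these fits had fewer samples or more genes tested, and the cause of the changes in the number of calls was not tested. The replicate block alone gave 21, 6 and 2 calls over both arms, with drug and without, when 4.74%, 1.4% and 0.644% of all genes fell. Same-numbered libraries correlated at −0.24 to 0.313 over 24 pairs, 6 of them above 0.1, and 7 of 16 libraries correlated best with their own number. Correlations of differently numbered libraries were not set beside these, so the check cannot decide whether the numbers pair the samples. No setting gave a call of a member for the drug or the interaction. The members' median turned sign for the drug on HFHS (−0.0058 without HFHS ertugliflozin replicate 4) and for the interaction (0.00395 without CD untreated replicates 2 and 3). For the drug on CD it ran from 0.0239 to 0.0745 without 1 library and for the drug over both diets from 0.0284 to 0.046.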
